A study of Drosophila melanogaster with 3 samples.

Results

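The bithorax complex of Drosophila melanogaster carried 25 of the 4753 reproducible Insv peaks, at 19 separate loci. It holds the Hox genes Ubx, abd-A and Abd-B and their regulatory DNA. Peaks were taken if their summit lay on 3R between 16655623 and 16973236 of the dm6 genome build, which is the stretch of 318 kb from the Ubx end to the Abd-B start with 1000 bp added on each side. The rule itself uses position and not peak strength, but the complex was picked for study with earlier results of these data known. Peaks are numbered here from 1 at the Ubx end to 25 at the Abd-B end, and peaks that overlap each other form a single locus.

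Chromatin immunoprecipitation followed by sequencing (ChIP-seq) was done with an anti-GFP antibody on embryos of a stable transgenic fly line in which green fluorescent protein (GFP) is joined to the C-terminal end of Insensitive (Insv). All 3 biological replicates were whole embryos of mixed sex, collected over the range of 0 to 24 h of age, and every one carried the fusion. They form a single group, without a second genotype, treatment or age, so places in the genome were compared and no test between conditions exists. Since the embryos mix all cell types and stages, binding in few cells cannot be told apart from weak binding in many. No read numbers are among the values analysed here. The depth of each library is therefore unknown, and the spread over replicates is the main measure of precision. It says little for shares that rest on very few peaks. The labels do not give the promoter that drove the fusion or the number of embryos pooled.

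Hox genes encode homeodomain transcription factors that give each body segment its identity. Ubx acts in the posterior thorax and the front of the abdomen, abd-A in the middle of the abdomen and Abd-B in its posterior segments. Long noncoding stretches around them hold enhancers that act segment by segment, separated by boundary elements and kept active or silent by Trithorax and Polycomb group proteins. Insv is a nuclear protein with a BEN domain, which binds DNA. It is known as a corepressor in the Notch pathway and as a protein that can act at chromatin boundaries, among them a boundary of the bithorax complex. The related Elba complex, also built on BEN-domain proteins, acts at boundaries in early embryos. Boundary elements are not marked in the annotation used, so no peak was assigned to one.

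The sequences that follow show what lay under the summits to which the results return. Each is the plus strand of 3R in dm6, read 5′ to 3′ from the RefSeq genome, and covers 101 bp centred on a summit unless stated otherwise. The first set holds the Insv and Elba sequences of the complex that lay inside a peak, in capitals. Peak 2 (chr3R:16719746-16719846) held the degenerate Insv site, and peak 15 (chr3R:16898525-16898625) held the Insv core palindrome CCAATTGG. The stretch of 292 bp between the summits of peaks 15 and 16 (chr3R:16898979-16899270) held the Elba site CCAATAAG near its left end and the Insv core inside a degenerate site near its right end.
peak 2: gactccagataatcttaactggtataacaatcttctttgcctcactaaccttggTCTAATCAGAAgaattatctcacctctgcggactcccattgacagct
peak 15: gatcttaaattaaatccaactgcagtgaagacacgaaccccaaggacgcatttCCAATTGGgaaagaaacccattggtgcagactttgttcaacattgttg
between peaks 15 and 16: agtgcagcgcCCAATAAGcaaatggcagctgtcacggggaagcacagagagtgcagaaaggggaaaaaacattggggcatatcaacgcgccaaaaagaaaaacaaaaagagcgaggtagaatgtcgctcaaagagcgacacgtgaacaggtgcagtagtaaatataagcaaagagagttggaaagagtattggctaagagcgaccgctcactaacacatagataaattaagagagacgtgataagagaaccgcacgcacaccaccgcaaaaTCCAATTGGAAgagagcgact

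The second set shows summits with a word of the boundary protein CTCF. Capitals mark the words AGGTGGCG and AGATGGCG or their wider form AGNNGGCG, on either strand. The wider form was chosen after the letters under the strongest summits had been seen. Peak 4 (chr3R:16748699-16748799) held 2 words that face each other, and peak 8 (chr3R:16834786-16834886) held 1. Peaks 11 (chr3R:16869330-16869430) and 13 (chr3R:16882785-16882885) held the wider form only.
peak 4: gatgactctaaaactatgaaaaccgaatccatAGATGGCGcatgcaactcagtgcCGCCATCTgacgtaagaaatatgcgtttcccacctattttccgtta
peak 8: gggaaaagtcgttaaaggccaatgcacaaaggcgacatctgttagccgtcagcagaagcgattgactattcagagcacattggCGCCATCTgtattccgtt
peak 11: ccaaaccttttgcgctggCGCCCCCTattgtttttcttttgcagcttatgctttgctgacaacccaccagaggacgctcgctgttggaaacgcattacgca
peak 13: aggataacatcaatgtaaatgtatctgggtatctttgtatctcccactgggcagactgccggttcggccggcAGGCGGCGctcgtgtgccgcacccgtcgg

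The third set shows strong summits with none of these sequences in the window, peak 3 (chr3R:16730845-16730945) and peak 17 (chr3R:16919053-16919153).
peak 3: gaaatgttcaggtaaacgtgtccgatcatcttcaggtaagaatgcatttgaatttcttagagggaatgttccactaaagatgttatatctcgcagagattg
peak 17: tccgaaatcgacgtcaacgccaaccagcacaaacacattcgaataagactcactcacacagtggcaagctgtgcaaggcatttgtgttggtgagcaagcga

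The strongest binding in the complex lay between abd-A and Abd-B and inside Ubx, not at the starts of the Hox genes. By the authors' signal score, 8 of the 25 peaks (32.0%, Wilson 95% interval 17.2 to 51.6%) were among the strongest 10% of the whole list, which by definition holds 10% of all IDR peaks. IDR, the irreproducible discovery rate, is the authors' test of reproducibility. Such intervals cover counting error only. The same count was 8, 7 and 7 when as many strongest regions were taken from replicates 1, 2 and 3, or 7.33 ± 0.577 (SD, n = 3). In the stronger 50% of the list lay 18 of the 25 peaks (72.0%). All 8 of the strongest-10% peaks had their summit over 500 bp from every start of a protein-coding gene, against 38.4% of the strongest-10% peaks of the genome.

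**Figure D1:**
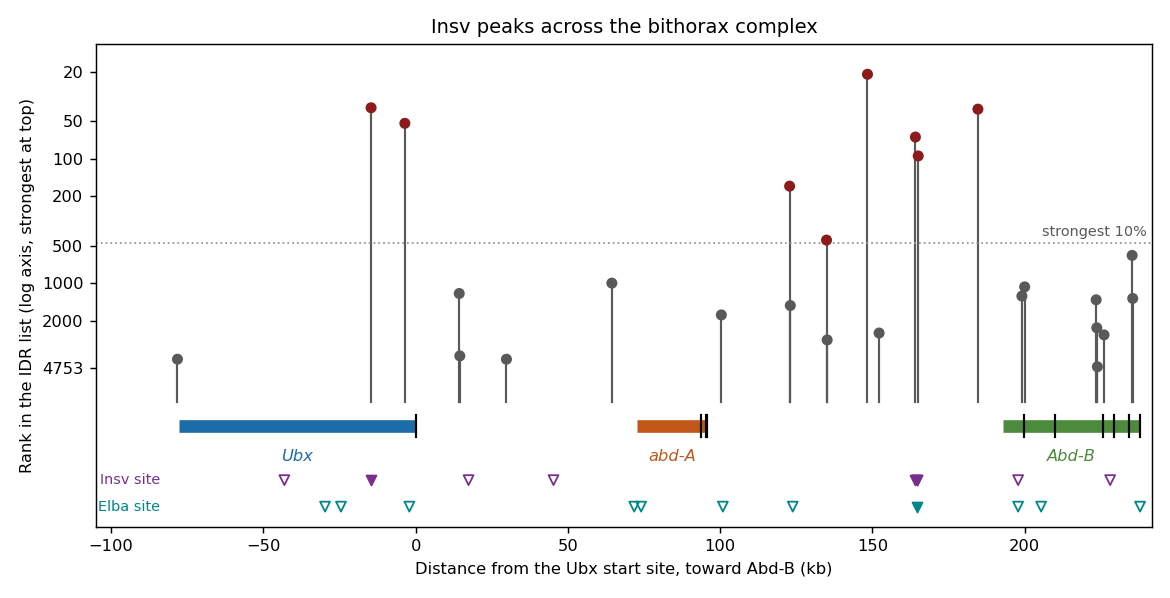
Each stem is an IDR peak, placed by its distance in kb from the Ubx start toward Abd-B, with its rank in the IDR list on a log axis; red heads are the strongest 10%, coloured bars are the 3 genes, black ticks their starts, and triangles are Insv and Elba sequences inside a peak (filled) or outside (open). The red heads stand inside Ubx and between abd-A and Abd-B, and no stem stands over abd-A.

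The strongest peak of the complex, peak 13, lay between abd-A and Abd-B at 3R 16882316 to 16883364. It ranked 21 of 4753, and 23, 20 and 24 among the 30000 regions of replicates 1, 2 and 3. All 3 replicates thus placed it within a few places of its rank in the IDR list. Its summit at 16882835 lay in an intron of lncRNA:iab8, a long noncoding RNA gene whose transcripts run through this stretch, and of MSAmiP, which overlaps it. The nearest start of any gene, one of lncRNA:iab8, was 9128 bp away, and the nearest starts of abd-A and Abd-B were 52786 and 51407 bp away.

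Peaks 2 and 3 are the pair inside Ubx, and both lay in introns of all its 6 transcripts. Peak 2, at 16718718 to 16720485, ranked 39 in the IDR list and 49, 43 and 36 in the replicates. Its summit at 16719796 was 14630 bp from the Ubx start but only 331 bp from the start of asRNA:PS4, an antisense RNA gene, so it counts as a promoter peak of a noncoding gene. The degenerate Insv site shown above began 4 bases beyond the summit, at 16719800. Peak 3, at 16730328 to 16731331, ranked 52 and, in the replicates, 45, 52 and 55. It lay 3531 bp inside Ubx from its start at 16734426 and held no Insv or Elba sequence within its length. All 6 replicate ranks of the pair lay between 36 and 55.

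Between abd-A and Abd-B, peak 17 ranked 40, and 41, 47 and 44 in the replicates. It lay at 16918170 to 16919595 in an intron of lncRNA:iab8, 4024 bp from a start of that gene and 15139 bp from the nearest Abd-B start. A CTCF word lay inside this peak, 126 bp from its summit. Peaks 15 and 16 share a single region of 2256 bp, 16897931 to 16900186, with summits at 16898575 and 16899493. This is the longest region of the complex and the one that carried the Insv core and the Elba site. Peak 15 ranked 67 and the joined region 35, 93 and 97 in the replicates. Peak 16 ranked 95, and the replicate summits within 100 bp of it ranked 65, 104 and 124. Replicate 1 thus placed both summits higher than the other replicates did. Peak 16 was 339 bp from a start of lncRNA:iab8.

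The remaining members of the strongest 10% are peaks 9 and 11. Peak 9, at 16856907 to 16857734, ranked 166, and 172, 186 and 157 in the replicates; it lay 918 bp from the start of the microRNA gene mir-iab-8, whose products act on Hox transcripts. Peak 11, at 16869181 to 16869700, ranked 450, and 427, 494 and 503 in the replicates. It is the member nearest to the limit at rank 476, and replicates 2 and 3 placed it just below.

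**Figure D2:**
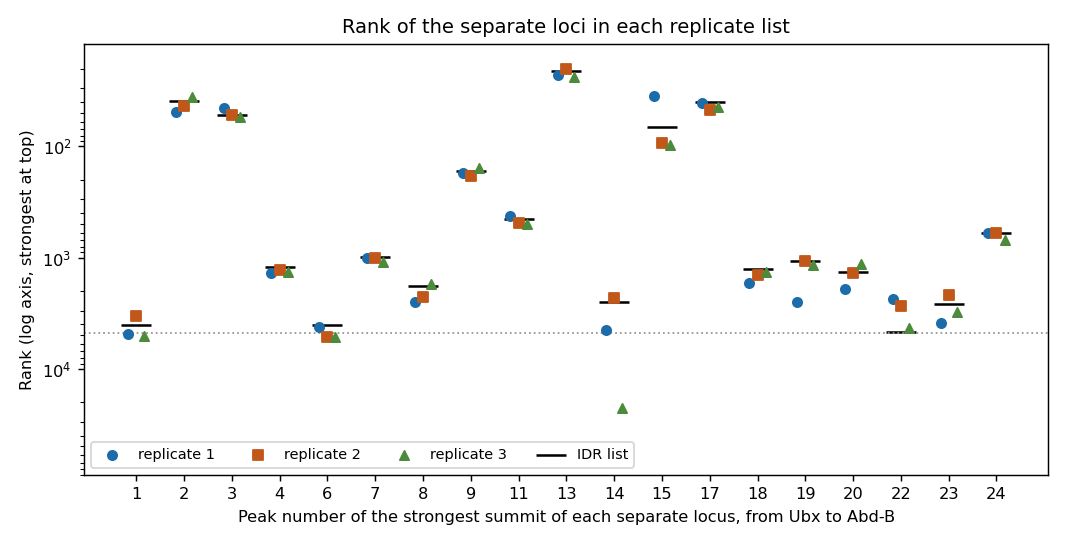
For the strongest summit of each of the 19 loci, the rank of the region that covers it in each replicate (symbols) and in the IDR list (bar) is drawn on a log axis with strong regions at the top; the dotted line marks rank 4753. Symbols of strong loci lie close together, and peak 14 has a replicate 3 symbol far below the others, at 22764.

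All 3 replicates held 21 of the 25 peaks (84.0%, Wilson 95% interval 65.3 to 93.6%) among their 4753 strongest regions, against 67.9% of all IDR peaks. The IDR list was built from these same replicates, which fixes part of this share beforehand. The other 4 were peaks 1, 5, 6 and 14, at ranks from 2507 to 4067. Peak 14 was covered in replicate 3 by a region of rank 22764, although another region of that replicate, with a summit within 100 bp, ranked 1935. Across the 19 loci, ranks were alike between replicates, with a Spearman rho of 0.932 for replicates 1 and 2, 0.944 for 1 and 3 and 0.979 for 2 and 3, given as a description over loci. At the 7 loci with a strongest-10% peak, the median offset of the replicate summit from the IDR summit was 3.0, 7.0 and 5.0 bp in replicates 1, 2 and 3, and the largest was 23 bp.

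The complex was then divided at the ends of its 3 genes. The span of Ubx, 77.8 kb, held 2 peaks, both in the strongest 10%, and 2.67 ± 0.577 regions in the replicates (SD, n = 3). Between Ubx and abd-A, 72.8 kb held 4 peaks at 3 loci, the best at rank 997, and 4.33 ± 0.577 regions in the replicates. The span of abd-A, 22.8 kb, held no IDR peak and no region of the replicate sets. It is the only one of the 3 gene spans without a peak, and it is also the shortest. The pooled list, which goes further down in signal, had 10 regions there, of which 4 had a q-value below 0.05.

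The stretch from abd-A to Abd-B, 97.2 kb, held 10 peaks at 7 loci, of which 6 peaks were in the strongest 10%. In the replicates it held 12, 10 and 11 regions, or 11.0 ± 1.00 (SD, n = 3). The span of Abd-B, 45.0 kb, held 8 peaks at 6 loci, and 7.67 ± 0.577 regions in the replicates. Its density of 17.8 peaks per 100 kb was above the 10.3 of the stretch beside it, with 17.0 ± 1.28 against 11.3 ± 1.03 in the replicates, which did not overlap. Yet none of the 8 was in the strongest 10%, and the best ranked 597. Peak 1, at rank 4065, lay beyond the Ubx end, 556 bp from the start of modSP, a serine protease gene.

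**Figure D3:**
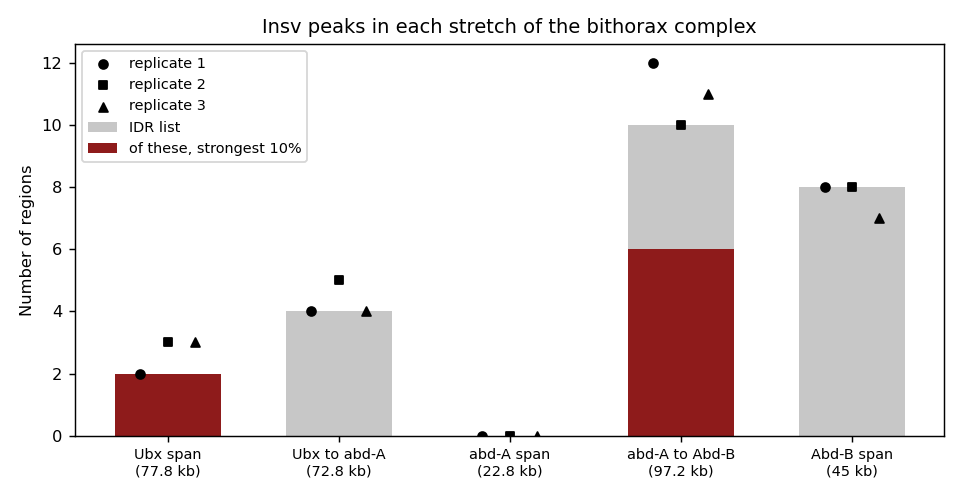
Bars give the number of IDR peaks in each gene span and each stretch between genes, with the strongest 10% in red, and symbols give the number of regions among the 4753 strongest of each replicate. Red appears in the Ubx span and between abd-A and Abd-B, and the abd-A span is empty in all 3 replicates.

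Weaker peaks between Ubx and abd-A lay partly in another noncoding gene. Peak 4, with the facing CTCF words, ranked 1207, and 1370, 1303 and 1352 in the replicates. Its summit lay in an intron of lncRNA:bxd, a noncoding gene of the stretch upstream of Ubx, 14323 bp from the Ubx start. Peak 7, in intergenic DNA 29225 bp from the nearest abd-A start, ranked 997, and 1020, 1011 and 1088 in the replicates. On the other side of abd-A, toward Abd-B, peak 8 lay in introns of lncRNA:iab8 and MSAmiP. It is the IDR peak nearest to an abd-A start, at 4787 bp, and ranked 1794, and 2488, 2248 and 1717 in the replicates.

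No start of a Hox gene of the complex carried a strongest-10% peak. A transcription start site (TSS) counts as bound when a summit lies within 500 bp. By that rule Abd-B was the single bound member of the 3, while 24.8% of all protein-coding genes were bound. Ubx was bound in replicates 2 and 3, and abd-A in none.

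Abd-B has 6 annotated starts, and 2 of them carried a peak. Peak 19 lay 209 bp from the start at 16934242 and ranked 1068. Regions with a summit within 500 bp of this start ranked 1126, 1085 and 1179 in the replicates, a percentile of 96.2 ± 0.153 (SD, n = 3) among 30000 regions. Peak 23 lay 240 bp from the start at 16960281 and ranked 2593, with 3852, 2193 and 3098 in the replicates and a percentile of 89.9 ± 2.75. In replicate 1 the region counted at the first start had its summit 91 bp from that start, while the region that covers the summit of peak 19 itself ranked 2503. By the covering regions, which ranked 2503, 1085 and 1179, the percentile of peak 19 was 94.7 ± 2.64 (SD, n = 3). Peak 19 ranked above peak 23 in each of the 3 replicates on either reading, but by the covering regions the ranges over replicates overlapped. Starts at 16944273 and 16963641 had no pooled region within 500 bp, and those at 16968574 and 16972236 had pooled regions of rank 11054 and 14836. The strongest peak of the Abd-B span, peak 24, lay 1173 bp from the start at 16968574 and ranked 597, with 597, 599 and 699 in the replicates.

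Ubx has a single start, at 16734426, and its region fell just short of the list. The pooled region there had its summit 5 bp from the start and ranked 4795, which is 42 places below the last IDR peak, with a q-value of 8.66e-05. The Abd-B regions of rank 1068 and 2593 had the same pooled q-value, so it does not grade strength among them. The Ubx region ranked 8773 in replicate 1, 4302 in replicate 2 and 4093 in replicate 3, with a percentile of 81.0 ± 8.81 (SD, n = 3). Replicate 1, with a q-value of 0.0582, stood apart from the other replicates at this start.

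The 3 starts of abd-A had no IDR summit nearby. Those at 16829752 and 16830049 shared a pooled region of rank 7741, which ranked 7513, 7226 and 12904 in the replicates, a percentile of 69.3 ± 10.7 (SD, n = 3). The start at 16828105 had no region within 500 bp in any list. The percentile ranges of Abd-B at 16934242, Ubx and abd-A fell in that order in replicates 2 and 3. In replicate 1 Ubx, at 70.8, was below abd-A, at 75.0, so the order of Ubx and abd-A was not fixed beyond the replicate spread.

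Over the whole complex, 4 of 25 peaks (16%, Wilson 95% interval 6.40 to 34.7%) had a summit within 500 bp of a start of any gene, against 65.6% of all IDR peaks. The replicate sets gave 21.8% ± 4.49 for the complex and 65.0% ± 1.34 for the genome (SD, n = 3). With starts of protein-coding genes alone, 2 of 25 (8.0%, Wilson 95% interval 2.22 to 25%) qualified, against 63.2%. The replicates gave 11.5% ± 0.445 against 62.7% ± 1.62. The number of such regions in the complex was the same in each replicate, so its SD reflects only the set sizes. For starts of any gene the gap to the genome was larger than the replicate spread. For coding starts the share of all IDR peaks lay above the Wilson interval of the complex. The Antennapedia complex, which holds the anterior Hox genes, also had a low share. For starts of any gene its replicates gave 24.7% ± 4.13 (SD, n = 3), and their range overlapped that of the bithorax complex. For coding starts alone they gave 22.9% ± 4.22, above the bithorax complex in each replicate. A share below that of the genome was thus common to both Hox complexes. Over 2000 bp from any start lay 12 of the 25 peaks (48.0%) and 16.2% of all IDR peaks. Of the 23 peaks of the complex over 500 bp from every coding start, 34.8% were in the strongest 10%, against 10.5% of such peaks in the whole genome.

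The 4 promoter peaks and the 21 distal peaks of the complex were also compared by strength. The median percentile was 97.2 ± 1.28 for promoter peaks and 96.1 ± 0.630 for distal ones (SD, n = 3), a difference of -1.07 points. With distal peaks over 1000 bp from a start the sign reversed, to 1.2 points. Split by coding starts alone, the medians were 97.4 ± 0.733 for 23 distal peaks and 92.3 ± 2.62 for coding promoter peaks (SD, n = 3). In that split the distal median was higher in each replicate, but the promoter side rests on 2 peaks. As the sign depends on the split, no direction is given. The promoter group for starts of any gene rests on 4 peaks, of which 2 are at Abd-B and 2 at noncoding RNA genes. The noncoding pair, peaks 2 and 16, ranked 39 and 95, and the Abd-B pair 1068 and 2593.

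Spacing of the strong loci was then measured. From peak 9 to peak 17, the 5 loci of the strongest 10% between abd-A and Abd-B followed each other at 12120, 13455, 15740 and 20528 bp. The 2 loci inside Ubx were 11099 bp apart, and 126365 bp without a strongest-10% peak separated peak 3 from peak 9. The median gap of the 7 loci was 14.6 kb, against 171 kb between neighbouring strongest-10% loci on the chromosome arms. Taking instead the 12 distal loci in the stronger 50% of the list, the median gap was 17.9 kb in the complex, with a range of 11.8 to 50.1 kb, and 89.3 kb on the arms. All loci together had a median gap of 13.9 kb here and 10.6 kb on the arms.

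These 12 distal loci lay from 694 to 51407 bp from the nearest start of a member gene. Nearest to a Ubx start were 2 of them, to an abd-A start 4 and to an Abd-B start 6. The 5 strongest-10% loci between abd-A and Abd-B kept 15139 bp or more from every Hox start. Cut into 420 side-by-side windows of the same length, the arms had a median of 1.00 strongest-10% loci per window. Only 1 window (0.238%) had 7 or more, and it held 9. Whether that window overlaps the complex is not given here. The interval was fitted to the complex and the windows were not, so the percentage is a description and not a probability. By the count of all peaks the complex stood less far out, as 27 windows held 25 or more.

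Other gene complexes of the fly gave a scale for these densities. The bithorax complex had 7.87 peaks per 100 kb, or 8.19 ± 0.315 in the replicates (SD, n = 3), against 3.55 over the chromosome arms. The Antennapedia complex, with the anterior Hox genes, had 5.89 (5.10 ± 0.613). The E(spl) complex of Notch-responsive repressors had 50.7 (44.1 ± 11.0), and the achaete-scute complex of proneural genes 3.15 (3.15 ± 1.05). For the strongest 10% alone, the bithorax complex had 2.52 per 100 kb (2.31 ± 0.182), the Antennapedia complex 0.883 (0.687 ± 0.17) and the arms 0.356. E(spl), with 2.20, rests on a single such peak. The bithorax and Antennapedia values did not overlap between replicates on either measure.

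**Figure D4:**
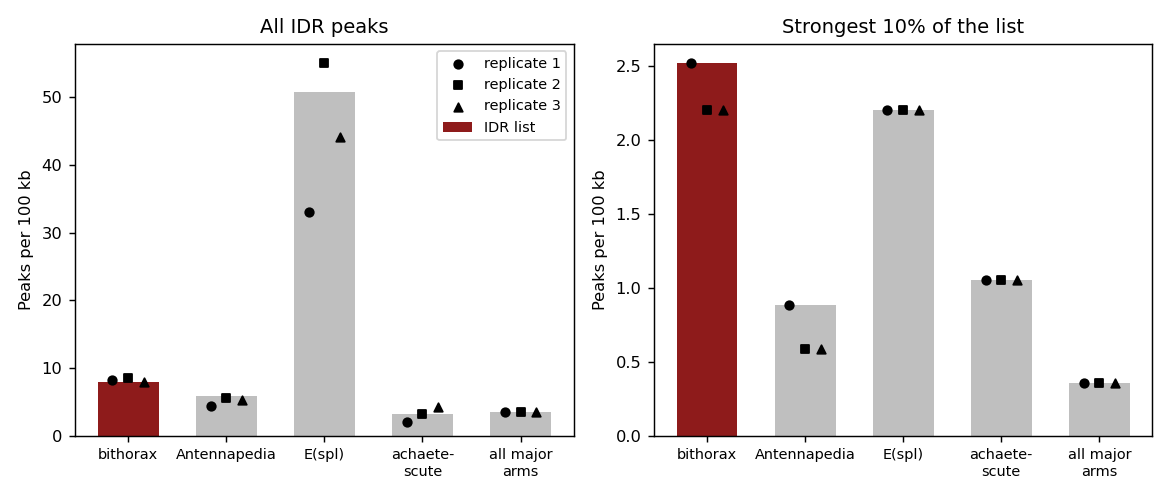
Peaks per 100 kb are drawn for 4 gene complexes and all chromosome arms, for the whole IDR list (left) and its strongest 10% (right); bars are the IDR list and symbols the replicate sets. The bithorax complex is far below E(spl) for all peaks, at 7.87 against 50.7, and at 2.52 against 2.20 for the strongest 10%.

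The sequence under the summits was compared with that under all IDR summits, by words that overlap the window of 50 bp to each side of the summit on either strand. An Insv site, core or degenerate, lay at 2 of 25 summits (8.0%, Wilson 95% interval 2.22 to 25%), peaks 15 and 2, against 7.11% of all IDR summits. The replicates gave 7.70% ± 0.296 for the complex and 7.09% ± 0.269 for the genome (SD, n = 3). The SD of the complex again reflects only the set sizes, so the Wilson interval is the better guide. The complex therefore stood near the background. Among the 8 strongest peaks the count was also 2 (25%, interval 7.15 to 59.1%), against 35.7% of the strongest-10% peaks of the genome and 41.0% of those away from coding starts. Searching the whole length of each peak, 3 of the 8 held an Insv or Elba sequence, against 64.5% of the strongest 10% in the genome. These 3 are peaks 2, 15 and 16, and the last pair shares 1 region.

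The Elba site lay within 50 bp of no summit of the complex, with a Wilson upper bound of 13.3%, against 2.08% of all IDR summits. The CTCF words lay at 3 summits (12%, interval 4.17 to 30%), those of peaks 4, 8 and 24. The share was 2.50% of all IDR summits and 4.06% of those over 500 bp from every coding start. With the wider form AGNNGGCG it was 7 summits (28.0%, interval 14.3 to 47.6%), those of peaks 4, 8, 9, 11, 13, 18 and 24. This compares with 6.61% of all IDR summits and 8.46% of those over 500 bp from every coding start. In peaks 24 and 9 the word only reaches the edge of the window, with its middle 52 and 54 bp from the summit. Of the 8 strongest peaks, 9, 11 and 13 had the wider form by this overlap rule (37.5%), against 5.25% of the strongest 10% in the genome. As this form was picked from these summits, its share is a description that supports nothing.

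Words of other proteins that act in the complex or at promoters were counted in the same way. The Pho core GCCAT, read by a Polycomb group protein that recruits silencing complexes, lay at 6 summits (24.0%, interval 11.5 to 43.4%), against 17.4%. The GAGA word GAGAGAG, bound by the factor that Trl encodes, lay at 1 summit, against 3.20%. The word CAGGTAG of Zelda, an activator of the early zygotic genome, lay at 2 (8.0%, interval 2.22 to 25%), against 0.968%. The BEAF-32 word CGATA lay at 2, against 20.6%. The DREF word TATCGATA, which contains CGATA, and the M1BP word GGTCACAC lay at none, against 3.51% and 3.32%. For these last 3, among IDR summits over 500 bp from every coding start the shares were 13.0% for BEAF-32, 0.457% for DREF and 0.172% for M1BP.

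Most Insv and Elba sequences of the complex carried no peak. The core occurred 6 times, and 2 matches lay inside a peak (33.3%), both in the region of peaks 15 and 16, against 9.94% on the arms. The other 4 cores lay in no region of the pooled list. For the degenerate site it was 2 of 3, against 28.4%, and for the Elba site 1 of 11 (9.09%), against 5.15%. CCAATCAG, a related word, occurred 5 times and never inside a peak, against 5.74% on the arms. Joined into one list without double counting, 4 of 18 Insv or Elba sequences lay inside an IDR peak (22.2%), against 9.09% on the arms, and the replicate sets gave 22.2% each. Of these 4, 3 lie in one region, which makes them dependent. The CTCF words occurred 22 times, with 5 inside a peak (22.7%), against 4.06% on the arms. Of these 5, 2 lie in peak 4 and are thus dependent.

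**Figure D5:**
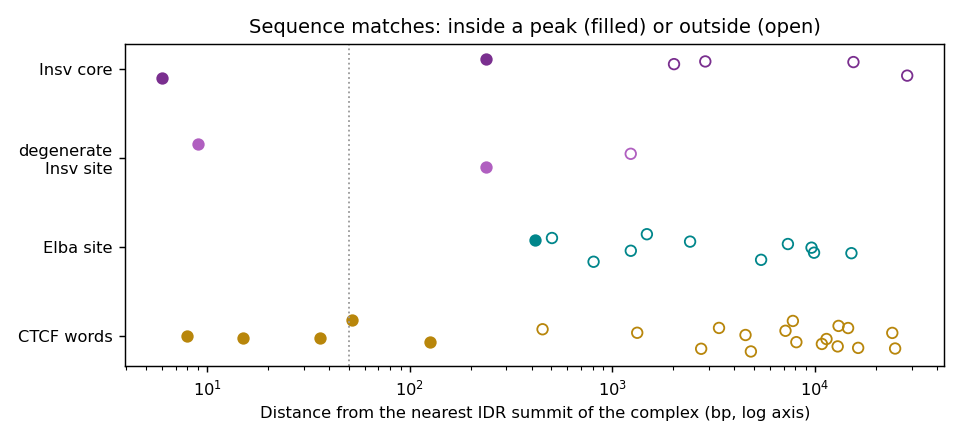
Each point is a match in the bithorax complex, placed by its distance in bp from the nearest IDR summit on a log axis, filled if inside a peak and open if not; the dotted line marks 50 bp, and heights within a row only separate the points. Filled points of the Insv core and the degenerate site stand at 6, 9, 238 and 239 bp, and 10 of 11 Elba sites are open.

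Genes that act with or on the bithorax genes were bound in part at their own promoters, by the same 500 bp rule and against 24.8% of all protein-coding genes. Among the other Hox genes, 2 of 5 were bound, Antp, which acts in the thorax, at rank 592 and Scr, which acts in the head and thorax, at rank 4286. Scr was bound in 2 of 3 replicates, and lab, pb and Dfd in none. Neither Hox cofactor gene, exd or hth, was bound, and neither were the 5 early regulators of segment patterning hb, Kr, kni, gt and tll. The nearest of these summits was 1623 bp from the start of tll.

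Of 10 genes for Polycomb and Trithorax group proteins, which maintain Hox expression states, 5 were bound. These were ph-p at rank 750, the histone methyltransferase gene E(z) at 874, trx at 2362, Psc at 2927 and ph-d at 3924, and the replicate sets gave 4, 5 and 4. Of the 5, Psc was bound in 2 of 3 replicates and ph-d in 1. Pc, Sce, esc, pho and ash1 had no IDR summit there, though ash1 was bound in 1 replicate. Of 13 genes for proteins known at boundaries, 7 were bound in the IDR list and 7 in each replicate. They were insv and Elba2, which share a peak of rank 57, Cp190 at 709, su(Hw) at 865, Trl at 914, CTCF at 2352 and pita at 3428. Elba1, Elba3, ZIPIC, dwg, Ibf1 and Ibf2 had none.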

How the data were processed

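The deposited lists are in narrowPeak format on dm6: a relaxed list per replicate, one for the replicates pooled, each called on alignments and a control alignment per the file headers, and the list that passed the authors' IDR test. The deposited signal score, of unstated scale, was used only as a rank within a list, and the authors' −log10 q-values only for the threshold of 0.05. The deposited summit offset gave positions. For peak caller, aligner, IDR threshold and depth: not given in the sources used here. Lists on dm3 were not used.

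Genes came from Ensembl release 115 (BDGP 6.54), with 13945 protein-coding genes and 23998 TSSs, and sequence from RefSeq. Replicate values use the 4753 strongest regions of each replicate, and a peak was held when its summit lay inside one of them; summits of a joined region share that region. Matches, TSS distances and loci were tested on simulated data. Members and lists were chosen with earlier results of these data known. Named one by one are the 12 strongest peaks, those at member TSSs and those with an Insv or Elba site, and a few others chosen after their values were seen. Tools were scipy 1.17.1, matplotlib 3.10.9, pandas 2.3.3 and numpy 2.4.6 under Python 3.11.15. Alternatives covered peak sets, distances, windows and leaving out each replicate, which keeps the IDR peaks held by both others and so is a stricter filter.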

Additional observations from a re-analysis of the deposited data

How the results depend on the processing

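No paired analysis was possible because the 3 replicates form a single group. Of 60 alternatives, 36 left the result alike, meaning a count within 1.5 times its main value or another value within the replicate spread, 23 moved it and 1 reversed it; the cause was not tested. The 25 peaks became 56 with pooled regions of q-value below 0.05, 18 in the stronger 50% of the list, and 21 to 23 when a replicate was left out (the replicate sets themselves held 25 to 27). Density, 7.87 per 100 kb, was 8.29 with the interval widened by 10 kb, 5.67 in the stronger 50% of the list and 6.61 to 7.24 without a replicate. The promoter share, 16%, was 8.0% within 250 bp, 28.0% within 1000 bp, 8.0% for coding or member TSSs alone and 17.4 to 19.0% without a replicate. The share with an Insv site, 8.0%, was 12% within 250 bp or anywhere in the peak, 11.1% in the stronger 50%, 10.5% with 1 summit per group of overlapping peaks, an alternative chosen after seeing the data, and 8.70 to 9.52% without a replicate. The Elba share was 8.0% anywhere in the peak, and the CTCF share 28.0% with the wider word. The median percentile, 96.1, was 95.2 with replicate summits within 100 bp, 91.6 by q-value and 95.9 to 96.5 without a replicate. Strong and weaker peaks often share a q-value, so percentiles by q-value hold many ties. The distal minus promoter difference, -1.07 percentile points, turned to 1.2 with distal peaks over 1000 bp away, and was -1.84 over 2000 bp and -1.45 to -0.860 without a replicate. Of the Insv or Elba sequences, 11.1% lay within 50 bp of a summit. The 21 peaks held by all replicates became 24 by q-value and 19 by summits within 100 bp. The count of bound genes, 15, was 12 to 14 without a replicate. The unknown depth and the 25 peaks limit every share.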
